A study of Arabidopsis thaliana with 3 samples.

Results

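Small secreted peptides are made as short precursor proteins that enter the secretory pathway and are often cut or modified before they reach receptors on the same or on neighbouring cells. RALF peptides bind FERONIA-type receptor kinases and limit cell expansion, CLE peptides bind leucine-rich repeat receptor kinases and set the size of stem cell populations, and defensins and related cysteine-rich peptides act chiefly against microbes. In the root stem cell niche such peptides carry signals between the quiescent center (QC), a group of rarely dividing cells, and the initials around it. The genes described here are those with a symbol of 1 of these peptide families followed by a number, on probe sets that name exactly 1 gene. There were 31 such genes among 13355 named genes, 11 of the RALF family, 8 LCR (low-molecular-weight cysteine-rich), 7 PDF and 5 CLE. CLE40 was left out by the rule.

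GFP-positive protoplasts, cells freed of their walls, were sorted from roots of WOX5:GFP seedlings of the Col-0 background at 5 days after stratification. The WOX5 promoter drove GFP, so the sorted cells are defined by that promoter alone. RNA of 3 such samples, all of the QC group, was amplified and hybridised to ATH1 arrays, 1 array each, so the study holds no other cell type to contrast them with. Separate plants are not stated in the labels for the 3 samples, and the p-values cover no more than the variation among the 3, part of which may be technical.

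The symbol rule brought in 2 genes that are not secreted peptides. PDF1A and PDF1B are annotated as peptide deformylases, organelle enzymes that remove the formyl group from new proteins, and share only their symbol with the plant defensins. The remaining 29 genes carry names of peptide families. The overlap of names ran the other way as well, since LCR66, LCR67, LCR68, LCR69 and LCR72 have the defensin names PDF2.4, PDF1.1, PDF2.3, PDF2.2 and PDF2.6 as synonyms. RefSeq lists 243 genes that the rule would take, and the 212 others were not analysed here. They include all genes of the SCRL, PROPEP, DVL/RTFL, GASA, PSK, RGF/GLV, CEP and IDL families.

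Values are MAS5 signals, a linear brightness per probe set. The arrays had median signals of 76.9, 81.4 and 81.3 on replicates 1 to 3, and their number limits the precision of every value. With no contrast between cell types, each gene was set against a background level, the 90th percentile of log2 signal over 6 genes of flowers and pollen on the same array. That level was a signal of 23.6, 44.9 and 48.98 on replicates 1 to 3. It was lowest on replicate 1, so a gene over the level there alone may have a higher signal on another array. The panel held AMS, MGH3 and AT5G07230 together with the peptide gene CLV3, a relative of the CLE members, and ANX1 and ANX2, pollen receptors of RALF peptides. These 6 genes were left out of the test. A gene without transcript would be expected under such a percentile. A call below therefore shows no more than a lack of signal over the level. With 6 genes, that percentile is the midpoint in log2 between the highest and the next highest gene. AMS was the highest on each array, with signals of 48.4, 59.7 and 99.4, and so lay over the level itself. A signal over the level therefore does not by itself show transcript. Over all genes tested, 45.3% lay above the level. Of 8 listed genes of the QC and stem cell niche, 3 were measured (BBM, JKD and AGL42), and all 3 lay above it. WOX5, PLT1, PLT2, SCR and SHR were not measured. The summed signal of the 3 was between 609 and 824 on the arrays. Above the level were also 8 of 10 measured markers of other root cell types. The summed signal of all 10 was between 2197 and 2245. The 2 sums cover different numbers of genes and give no proportion of cell types. The 2 others, ATMYC1 and LBD29, were not called, and 17 of the 27 listed markers of other cell types were not measured. The part of these markers in the values below was not tested. Measured here means matched to a probe set that names exactly 1 gene, so a gene not measured may still be on the array.

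Among the 31 genes, 9 (29.0%) were over the level and 12 (38.7%) under it, and 10 passed the test in neither direction (limma against the level, two-sided, Benjamini-Hochberg over 13349 genes, adjusted p under 0.05). Over all genes tested, 45.3% lay above and 25.6% below. Among protein-coding genes alone, as all 31 are, 48.8% lay above and 22.8% below. The median of the 31 genes was -0.97 log2 relative to the level, against 0.62 for all genes tested. Array by array the median of the 31 genes was 0.10, -0.68 and -1.39 on replicates 1 to 3, against 1.25, 0.48 and 0.30 for all genes. Without the deformylases, 8 of 29 lay above and 12 below. The count below rested on the level. When AMS was left out of the panel, 12 of the 31 genes were above and 3 below, against 51.3% above and 11.7% below over all genes, so that the 31 genes no longer had the larger share below. The count below was also 6 without replicate 2 and 6 without replicate 3, against 17.0% and 16.7% of all genes. In sorted cells, fewer cells with a transcript and less transcript per cell cannot be told apart. Effects of wall digestion and those of cell type cannot be told apart either.

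**Figure D1:**
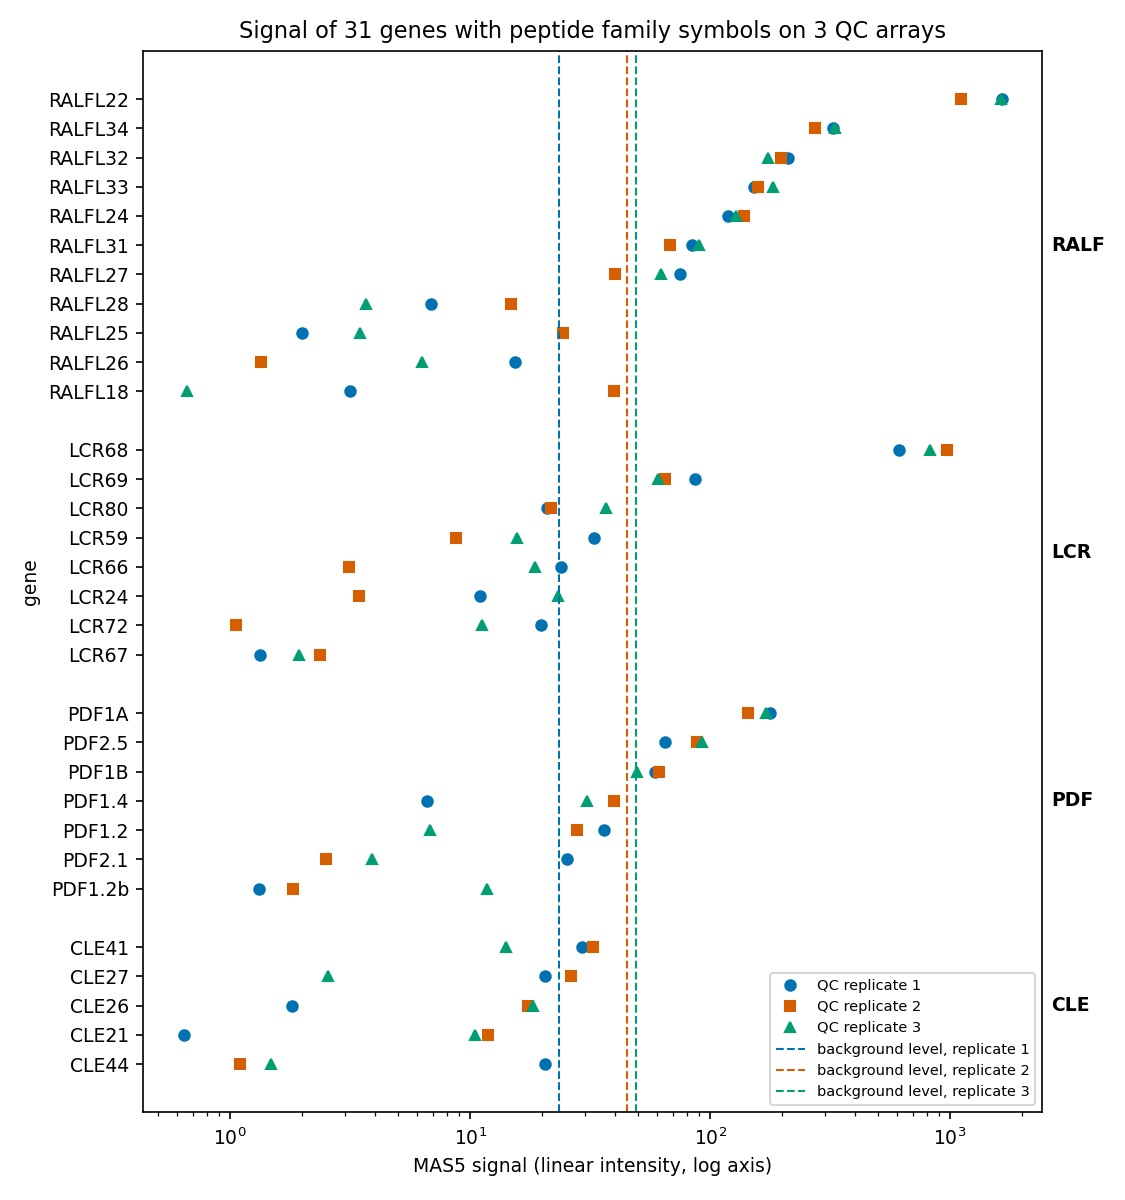
MAS5 signal of each of the 31 genes (log axis), grouped by family, with 1 point for each QC replicate and dashed lines at the background level of each array (23.6, 44.9 and 48.98). RALFL22 and LCR68 sit between 610 and 1639 on all arrays, while the 5 CLE genes stay at or below 32.5.

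Of 11 measured RALF genes, 6 lay above background (54.5%, against 45.3% of all genes tested and 48.8% of protein-coding genes) and 4 below (36.4%, against 25.6% and 22.8%). RALFL22, a peptide that acts with FERONIA in cell wall sensing under salt stress, had signals of 1639, 1108 and 1635 on replicates 1 to 3. It was the lowest on replicate 2 and far over the level on every array. Its mean difference from the level was 5.27 ± 0.77 log2 (SD, n = 3), with a limma adjusted p of 4.05e-28. Values after ± are SDs over the 3 arrays throughout. The p-values of the main test do not rest on these SDs, because the error of each gene came from a trend over all genes. RALFL34, a ligand of the receptor kinase THESEUS1 that takes part in lateral root initiation, had signals of 326, 272 and 330. It lay 3.05 ± 0.65 log2 over background (limma adjusted p = 7.40e-15), and its signal differed by 0.28 log2 between the highest and the lowest array.

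RALFL32, RALFL33 and RALFL24 were above background with little variation between arrays. RALFL32 had signals of 211, 197 and 175 and lay 2.38 ± 0.70 log2 over background (limma adjusted p = 5.06e-09). RALFL33, which can dampen immune signalling through FERONIA, had signals of 153, 159 and 184 and lay at 2.14 ± 0.48 (limma adjusted p = 3.06e-07). No array stood apart for either gene. RALFL24 had signals of 118, 138 and 128 and lay at 1.78 ± 0.49 (limma adjusted p = 6.06e-05), with the smallest spread of the 31 genes (SD 0.11 log2). Its call ended when the level was raised by 1 log2 (limma adjusted p = 0.0826).

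RALFL31 and RALFL27 lay close to the level. RALFL31 had signals of 83.98, 67.8 and 90.02, over the level on all arrays by a mean of 1.102 ± 0.65 log2 (limma adjusted p = 0.0296). Its call ended without replicate 1, 2 or 3 (limma adjusted p = 0.0546, 0.135 and 0.128). RALFL27 had signals of 74.98, 40.2 and 62.2, below the level on replicate 2 alone, and was not called at 0.62 ± 0.94 (limma adjusted p = 0.282).

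The other 4 RALF genes, RALFL28, RALFL25, RALFL26 and RALFL18, lay below the level on all 3 arrays, by means between -2.37 and -3.10 log2. Since a signal depends on how well a probe set binds its target, the signals give no order of transcript abundance among these genes. RALFL18 had signals of 3.17, 39.7 and 0.659, the widest range of the 31 genes at 5.91 log2, and came near the level on replicate 2. RALFL25 had signals of 1.99, 24.5 and 3.48, again highest on replicate 2. RALFL26, whose gene is next to RALFL25 on the chromosome, was lowest on replicate 2 (15.4, 1.34 and 6.28). The adjacent genes were thus highest on different arrays, but both stayed under the level, so this order is not read as a pattern. Each of these 4 calls ended without 1 of the replicates. For RALFL28 it was replicate 3 (limma adjusted p = 0.172), for RALFL26 replicate 2 (limma adjusted p = 0.163) and for RALFL18 replicate 3 (limma adjusted p = 0.208). That of RALFL25 ended without replicate 1 or 3 (limma adjusted p = 0.0705 and 0.0827). All 4 calls also ended with the 75th percentile as level, with bacterial controls as background and without AMS.

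**Figure D2:**
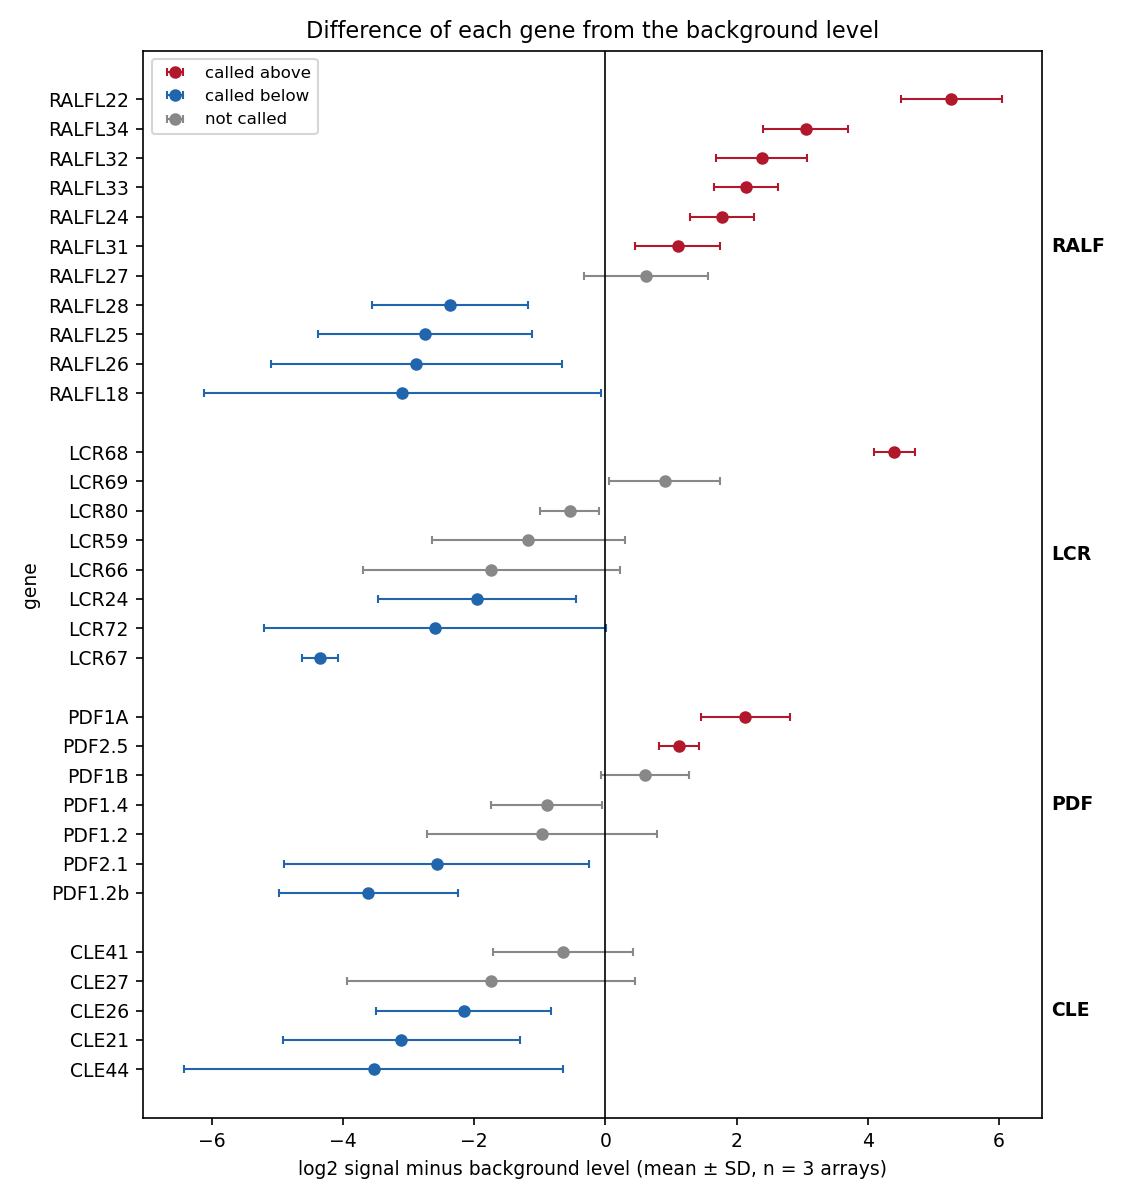
Mean log2 signal minus the background level of the same array for each gene, with bars of 1 SD (n = 3 arrays), coloured by the call of the limma test. Of 11 RALF genes 6 are called above and 4 below, and of 5 CLE genes 0 are called above and 3 below. Over all genes tested 45.3% are called above and 25.6% below.

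No CLE gene was called above background (0 of 5, by limma at adjusted p under 0.05). Also, 0 had a positive difference at a limma unadjusted p under 0.05, since all 5 mean differences were negative. Below background were 3 of 5 (60%). Over all genes tested 45.3% lay above and 25.6% below, and over protein-coding genes 48.8% and 22.8%. With 5 genes the shares of the family are imprecise. CLE41 and CLE44 encode TDIF, the peptide that keeps vascular stem cells dividing and blocks xylem differentiation. CLE41 had signals of 29.3, 32.5 and 14.1, over the level on replicate 1 alone, and was not called at -0.65 ± 1.07 log2 (limma adjusted p = 0.404). CLE44 had signals of 20.5, 1.104 and 1.48, so that replicate 1 stood apart from the others. It lay below background at -3.53 ± 2.89 (limma adjusted p = 0.00166), and the call ended without replicate 2 (limma adjusted p = 0.0536).

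CLE26, a peptide of the root phloem, had signals of 1.82, 17.5 and 18.3, all below the level. It lay at -2.16 ± 1.33 log2 (limma adjusted p = 0.0284), a call that ended without any 1 replicate (limma adjusted p = 0.179, 0.0585 and 0.0534 without replicates 1 to 3). CLE21 was likewise lowest on replicate 1, with signals of 0.644, 11.9 and 10.4, and lay at -3.11 ± 1.81 (limma adjusted p = 0.00423). The call of CLE21 ended without replicate 1 (limma adjusted p = 0.0934). With the 75th percentile as level and without AMS, the calls of CLE26 and CLE21 ended too. That of CLE26 also ended with bacterial controls as background. CLE27 had signals of 20.4, 26.5 and 2.56 and was not called at -1.74 ± 2.20 (limma adjusted p = 0.0612). The 5 CLE genes had no array in common on which they were highest. CLE44 was highest on replicate 1, CLE41, CLE27 and CLE21 on replicate 2 and CLE26 on replicate 3. Apart from CLE41 on replicate 1, all their signals lay under the level, so this order is not read as a pattern.

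With the deformylases set aside, 2 of 13 cysteine-rich genes of the LCR and PDF families lay above background (15.4%) and 5 below (38.5%). Over all genes tested 45.3% lay above and 25.6% below, and over protein-coding genes 48.8% and 22.8%. LCR68, which encodes the defensin PDF2.3, had signals of 610, 974 and 822, lowest on replicate 1. It lay 4.40 ± 0.31 log2 over background (limma adjusted p = 1.19e-25). PDF2.5, a defensin that binds cadmium, had signals of 65.1, 88.5 and 92.1 and lay at 1.12 ± 0.30 (limma adjusted p = 0.0266). That call ended without replicate 2 or 3 (limma adjusted p = 0.200 and 0.125).

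LCR68 belongs to a row of defensin genes on chromosome 2, and its neighbours behaved otherwise. In the gene order of RefSeq, PDF2.1, LCR68 and LCR72 follow each other directly, and LCR69 lies on the far side of 1 further protein-coding gene. LCR69 had signals of 86.5, 64.6 and 60.8, over the level on all arrays, and was not called at 0.90 ± 0.85 log2 (limma adjusted p = 0.0880). It was called above in 6 of 17 alternatives, among them the common level for all arrays (limma adjusted p = 0.00569). PDF2.1 had signals of 25.3, 2.51 and 3.90, over the level on replicate 1 alone, and lay below background at -2.57 ± 2.33 (limma adjusted p = 0.0129). LCR72 had signals of 19.7, 1.06 and 11.2 and lay below at -2.60 ± 2.61 (limma adjusted p = 0.0122). Both of these calls ended without replicate 2 (limma adjusted p = 0.165 for PDF2.1 and 0.332 for LCR72), on which both genes were lowest. PDF2.1 also lost its call without replicate 3 (limma adjusted p = 0.108). Both genes lost their calls with the 75th percentile as level, with bacterial controls as background and without AMS. How far the probe sets of such related genes bind each other's transcripts was not tested.

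**Figure D3:**
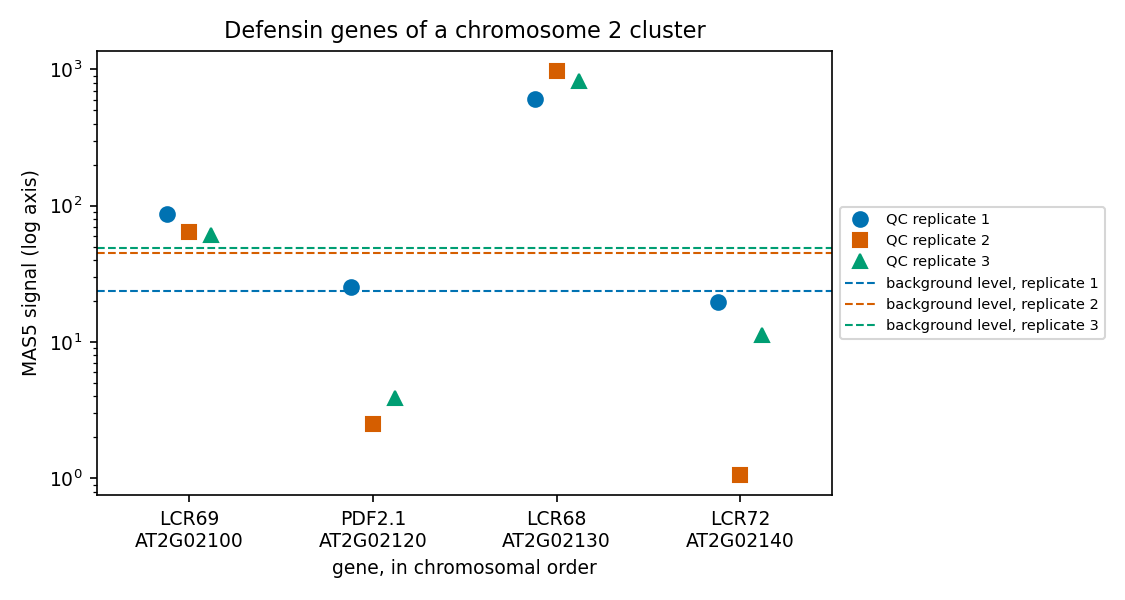
MAS5 signal (log axis) of 4 defensin genes in chromosomal order, with 1 point for each QC replicate and dashed lines at the background level of each array. LCR68 lies between 610 and 974, LCR69 between 60.8 and 86.5, and PDF2.1 and LCR72 at or below 25.3.

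The remaining defensins were not called above. PDF1.2 is a marker of the jasmonate and ethylene response. It had signals of 36.1, 27.98 and 6.78, over the level on replicate 1 alone, and was not called at -0.97 ± 1.75 log2 (limma adjusted p = 0.238). PDF1.2b, a copy of it, had signals of 1.31, 1.82 and 11.8 and lay below at -3.61 ± 1.37 (limma adjusted p = 0.00137). The name of its probe set marks it as able to bind several transcripts, so which copy it measured is uncertain. LCR67, the defensin PDF1.1, had signals of 1.33, 2.37 and 1.93 and was the furthest below its level at -4.35 ± 0.28 (limma adjusted p = 2.09e-04). It was steady on all arrays, and it was below background in each of the 16 alternatives that tested it.

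LCR24 was the last gene called below, with signals of 10.99, 3.44 and 23.2 (-1.96 ± 1.51 log2, limma adjusted p = 0.0409). The call ended without any 1 replicate (limma adjusted p = 0.067, 0.372 and 0.0638 without replicates 1 to 3). It ended too with the 75th percentile as level, with bacterial controls or pseudogenes as background and without AMS. LCR80, LCR59, LCR66 and PDF1.4 were not called, with means between -0.55 and -1.74 log2. LCR80 and PDF1.4 stayed under the level on all arrays, whereas LCR59 and LCR66 were over it on replicate 1. The deformylase PDF1A had signals of 178, 143 and 172 and lay at 2.13 ± 0.68 (limma adjusted p = 3.47e-07), and PDF1B had signals of 59.2, 61.4 and 49.5, over the level on all arrays, and was not called at 0.60 ± 0.67 (limma adjusted p = 0.301).

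The spread between arrays was smaller for the genes above background than for those below it, as it was over all genes tested. For the 9 genes above, the SD of log2 signal was between 0.11 and 0.34 and the signal of all 9 stayed within 2-fold on all arrays, as did 93.2% of all genes called above. For the 12 below, the SD was between 0.42 and 2.98, and 1 of 12, LCR67, stayed within 2-fold, against 6.53% of all genes called below. The medians were 0.17 log2 for the genes above and 1.84 for those below, beside 0.23 and 1.704 for all genes called above and below. No single array was high throughout. Of the 12 genes below, 4 were highest on replicate 1, 5 on replicate 2 and 3 on replicate 3.

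**Figure D4:**
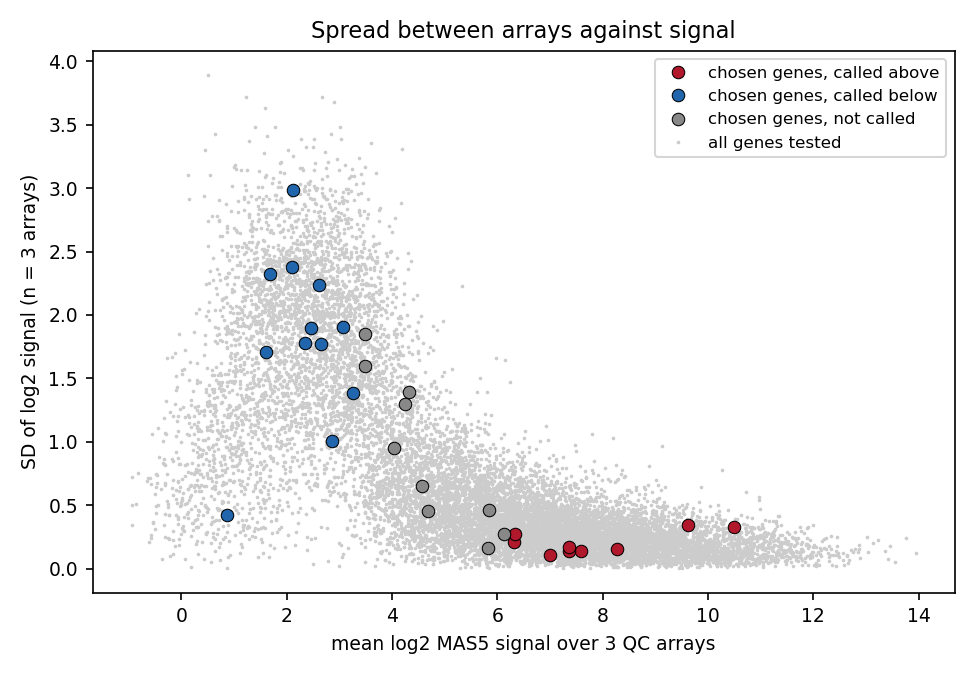
SD of log2 signal over the 3 QC arrays against the mean log2 signal, for the 31 genes by call and for all 13349 genes tested (grey). The 9 genes called above have SDs of at most 0.34, and those called below reach 2.98.

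The receptors and the enzymes that process peptides were counted in the same test, from a list of 71 genes of which 14 were measured. Of these 9 lay above background, 2 below and 3 were not called, beside 45.3% above and 25.6% below over all genes tested. Among 7 receptors, 6 were above. FERONIA (FER), the receptor of several RALF peptides, had signals of 1978, 1824 and 1725 and lay 5.62 ± 0.67 log2 over background (limma adjusted p = 4.05e-28). THE1, the receptor of RALFL34, had signals of 899, 884 and 824 and lay at 4.54 ± 0.63 (limma adjusted p = 2.22e-26).

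On the CLE side, AT1G08590 and AT4G28650, named PXL1 and PXL2 for their likeness to the TDIF receptor PXY, lay above background at 3.38 ± 0.89 and 2.48 ± 0.70 log2 (limma adjusted p = 6.52e-18 and 8.36e-10), while CLE41 and CLE44 did not. CR4, known as ACR4 and a receptor of the distal stem cell pathway, had signals of 157, 169 and 103. GSO1, the receptor of Casparian strip peptides, had signals of 419, 389 and 391, over the level on all arrays. CR4 and GSO1 also stand on the lists of columella and endodermis markers counted above. PSY1R, the receptor of the sulfated peptide PSY1, was not called (44.1, 57.9 and 15.2, limma adjusted p = 0.848).

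Of 7 processing enzymes, 3 lay above and 2 below, near the shares over all genes tested (45.3% above and 25.6% below). S1P, the subtilase that cuts RALF22 and related precursors, had signals of 102, 73.7 and 51.7 and was not called at 0.97 ± 1.04 log2 (limma adjusted p = 0.0632). It was over the level on all arrays and was called above in 8 of 17 alternatives. The subtilases ARA12 and SBT4.12 and the arabinosyltransferase XEG113 lay above, at 4.76 ± 0.57, 3.68 ± 0.38 and 3.53 ± 0.82 log2. SBT4.13, which acts with SBT4.12 on the abscission peptide IDA, lay below at -4.62 ± 1.30 (limma adjusted p = 9.79e-05), and SBT5.4 lay below at -3.26 ± 2.78 (limma adjusted p = 0.00307), a call that ended without replicate 3 (limma adjusted p = 0.103). ATSBT5.2 was not called (limma adjusted p = 0.289). Of 10 listed co-receptors 0 were matched to a probe set naming exactly 1 gene. STOMAGEN, a stomatal peptide of leaves and the only measured gene of 18 further peptides, lay below at -3.57 ± 2.06 (limma adjusted p = 0.00152).

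**Figure D5:**
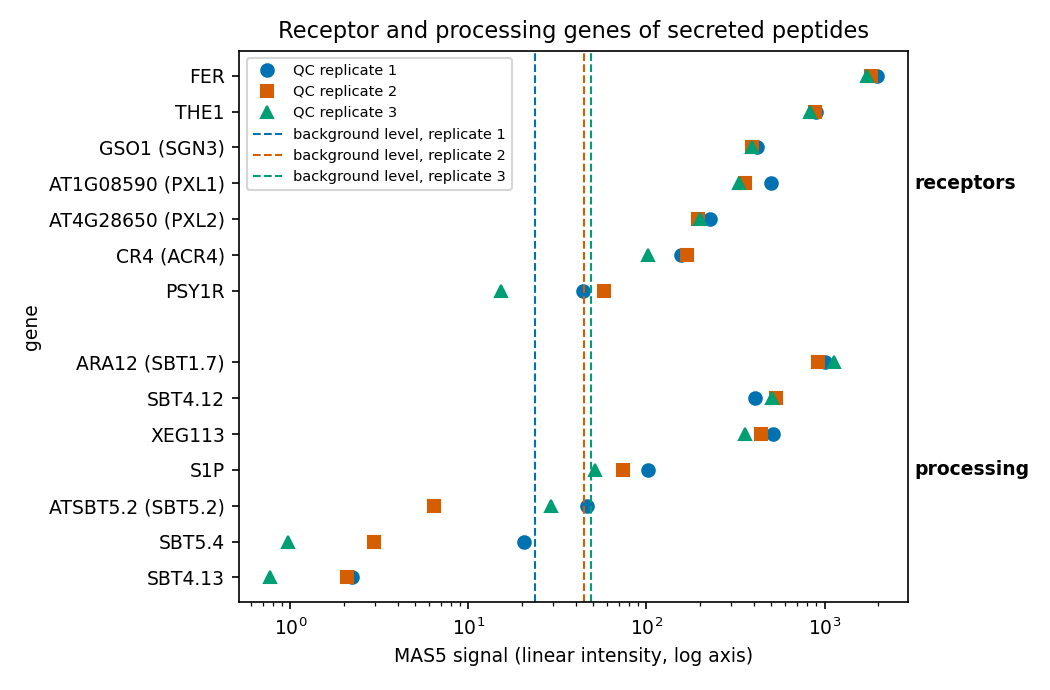
MAS5 signal (log axis) of 7 receptor and 7 processing genes, with 1 point for each QC replicate and dashed lines at the background level of each array. FER lies between 1725 and 1978 and THE1 between 824 and 899, while S1P lies between 51.7 and 102, over the level of each array.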

How the data were processed

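Amplified, biotin-labelled RNA from 3 samples of sorted QC protoplasts went on 1 ATH1 array each. The deposited values are linear 1-colour intensities (MAS5 signals), and their mean without the 2% at either end was 250 on each array. For the MAS5 version and settings, the sources used here give nothing. Log2 was taken with nothing added. Of 22810 probe sets, 503 named several genes, 8730 named none and 64 were controls. The other 13513 named 1 gene in the platform annotation. RefSeq (TAIR10.1, for names and gene order only) matched 13436 of these by gene ID and 72 by symbol or locus, and 5 had no match. Of the 31 genes described, 29 matched by gene ID and 2 by symbol, each with 1 probe set. Where a gene had several probe sets their log2 signals were averaged.

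Each gene minus the background level was tested against 0 with limma 3.58.1 (R 4.3.3), in an intercept model with a variance trend. The estimated prior had infinite degrees of freedom, which means that the trend alone set the error of a gene, and the error of the level (SD 0.58 log2 between arrays) is shared by all genes. The members, lists and panel were chosen with earlier results of these data known. Named were the genes above background, the lowest of each family, the 5 of widest range, all CLE genes and up to 10 receptor and processing genes by adjusted p. All others were named after their values were seen. The list symbol SOL1 met another gene and was left out. Alternatives were other levels (75th and 95th percentile, bacterial controls, pseudogenes, 1 common level, a rise of 1 log2, no AMS), quantile normalization, an offset of 16, other filters, no variance trend and leaving out each replicate. Sequences were not used here.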

Additional observations from a re-analysis of the deposited data

How the results depend on the processing

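The panel without AMS, the protein-coding genes alone and the members without PDF1A and PDF1B were chosen after seeing the data. No paired analysis was possible because all 3 arrays belong to 1 group. Of the 9 genes above background, 6 (RALFL22, RALFL34, RALFL32, RALFL33, LCR68 and PDF1A) stayed above in all 17 alternatives run. PDF2.5 and RALFL31 also lost their calls without a variance trend, with the level raised and with the 95th percentile as level. LCR67 and PDF1.2b stayed below in all alternatives that tested them (16 and 15). The count above ranged from 6 to 12, and leaving out 1 replicate gave 7 to 8. The count below was 3 at the 75th percentile, 4 with bacterial controls, 19 at the raised level and 3 without AMS. Leaving out genes below the level on all arrays removed 14 of the 31. It left 0 called below, as it did over all 8925 genes tested there. Leaving out 1 replicate gave 6 to 8 below, against 16.7% to 19.6% of all genes. Members above and below numbered 12 and 3 at the 75th percentile, 12 and 4 with bacterial controls, 12 and 11 with pseudogenes, 6 and 19 at the raised level and 12 and 3 without AMS, against 9 and 12. Over all genes, calls above made up 80.6%, 81.6%, 74.8%, 46.9% and 81.5% of calls in these settings, against 63.9%, and the counts below were 1637, 1713, 2335, 5217 and 1560, against 3414. Those settings moved the median of all genes by 0.90, 1.00, 0.71, -1.00 and 0.95 log2. The count below over all genes was 2269 without replicate 2 and 2226 without replicate 3. The median of the 31 genes was -0.069 at the 75th percentile, -0.020 without AMS and -1.97 with the level raised, and turned to 0.024 with bacterial controls and 1.102 in the filtered set of 17. Turned signs of single genes came 23 times and 0 passed the test. At the 75th percentile they were PDF1.4 (0.0086), ATSBT5.2 (0.048), PSY1R (0.77), CLE41 (0.25) and LCR80 (0.36). With bacterial controls they were PDF1.4 (0.10), ATSBT5.2 (0.14), PSY1R (0.86), CLE41 (0.35), LCR80 (0.45) and PDF1.2 (0.024). Without AMS they were PDF1.4 (0.057), ATSBT5.2 (0.097), PSY1R (0.81), CLE41 (0.30) and LCR80 (0.41). With pseudogenes PSY1R lay at 0.26. At the raised level they were LCR69 (-0.095), RALFL27 (-0.38), PDF1B (-0.40) and S1P (-0.030). Leaving out 1 replicate gave -1.77 to 0.12 for ATSBT5.2 and -0.66 to 0.64 for PSY1R, positive without replicate 2 for ATSBT5.2 and without replicate 3 for PSY1R. A change of level moves every gene by the same amount on an array, and the cause of the other changes was not tested.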
